A study of Mus musculus with 21 samples.

Results

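Runx1, Runx2 and Runx3 and their partner Cbfb were followed across 15 transcriptome libraries and 2 lists of ChIP-seq peaks from mouse lymphoid progenitors (LPs). The genes were taken by symbol from the expression table, where they are 4 of 55421 identifiers, and every peak whose nearest annotated gene was 1 of the 4 was taken from the lists, which gave 19 of 5898 Zbtb1 peaks and 22 of 6077 Cbfa2t3 peaks. The cells were an *Ebf1*-deficient LP line of C57BL6/J origin, grown on OP9 stroma with SCF, IL-7 and Flt3L, so every group shares the deficiency of *Ebf1*, a factor that B-lineage commitment requires. Reads from the 3′ end of Ebf1 were still present at group means of 217 to 336 CPM (reads scaled to the same total in every library), and such reads do not show whether a working product is made. Cells that carried Cas9-GFP received a pool of 2 single guide RNAs (sgRNAs), marked by human NGFR, against luciferase (sgControl), *Lmo2*, *Zbtb1*, *Cbfa2t2* or *Cbfa2t3*, and GFP+ hNGFR+ cells were sorted 5 days later, with 3 replicates per sgRNA pool, for sequencing of mRNA 3′ ends (QuantSeq). The sorted cells are pools that can hold different edits, and in such bulk samples fewer expressing cells and less RNA per cell cannot be told apart. ChIP-seq with 2 replicates per factor was done in the same kind of LPs without Notch stimulation.

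The Runx proteins bind DNA through their Runt domain, and Cbfb, which does not bind DNA itself, joins each of them and strengthens that binding. Runx1 is required for the formation of blood stem cells and for early T- and B-cell development, Runx3 is best known for CD8+ T cells and natural killer cells, and Runx2 for bone formation. Each *Runx* gene is read from a distal promoter (P1) and a proximal promoter (P2), which give proteins that differ at the amino terminus. Reads from the 3′ end do not tell the transcripts of the promoters apart, so the levels here are sums over both.

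The 3 distal *Runx* promoters are shown first, because a peak of at least 1 of the lists lies on each of them and because they hold the same double Runx site. The longest run of bases that the RefSeq promoter windows (GRCm38.p6, 250 bases before to 50 after each start) of all 3 have in common is 18 bases long and contains the Runx core TGTGGT 2 times, on the strand opposite to the one printed. It is given in capitals with 6 bases to each side, 5′ to 3′ on the strand of the gene.
Runx1, chr16:92826025-92826054, minus strand: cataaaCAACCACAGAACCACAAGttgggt
Runx2, chr17:44814583-44814612, minus strand: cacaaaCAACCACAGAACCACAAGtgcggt
Runx3, chr4:135120503-135120532, plus strand: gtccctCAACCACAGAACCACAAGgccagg
On the 21 main chromosomes of the reference this run occurred 3 times, on either strand, and these were the 3 copies above. The run was chosen as common to these windows, so its presence in them follows from the choice. Among 32851 promoter windows 4 held it, and the one not printed is that of the noncoding RNA gene Gm16225, which overlaps the distal *Runx3* window on the other strand. From the RefSeq start, the run begins at position 27 of the *Runx1* transcript, at position 22 of that of *Runx2* and at -136 for *Runx3*. The *Runx1* copy lay within a peak of both lists, the *Runx2* copy within a Zbtb1 peak and the *Runx3* copy within a Cbfa2t3 peak. At least 2 Runx cores were found in 1.81% of all promoter windows and at least 1 in 16.8%. The distal windows held 2 (*Runx1*), 3 (*Runx2*) and 2 (*Runx3*), of which 2 in each belong to the shared run. The proximal windows of *Runx1* and *Runx3* and the single *Cbfb* window held 0.

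In the control cells *Runx1* and *Runx3* were the most abundant of the 4 genes. QuantSeq counts about 1 read per mRNA whatever its length, and the values are reads scaled to the same total in every library (CPM), so levels of different genes can be set side by side as 3′-end reads. *Runx1* averaged 320 ± 16 CPM in sgControl (SD, n = 3) and *Runx3* 290 ± 53.8 CPM, and their libraries overlapped. *Cbfb* followed at 137 ± 7.20 CPM and *Runx2* at 40.4 ± 13.5 CPM, and neither overlapped with any gene above it in that order. Of 11554 genes with a mean above 1 CPM, 96.0% were lower than *Runx1* in sgControl, 95.5% lower than *Runx3*, 88.1% lower than *Cbfb* and 62.0% lower than *Runx2*. All 4 genes passed that filter, with 36 to 620 reads in every library out of 1705416 to 2095447 reads in all.

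Across the 5 conditions the main change was a loss of *Runx1* reads in the libraries labelled sgZbtb1. *Runx1* was at 334, 324 and 303 CPM in the 3 sgControl libraries and at 178, 186 and 175 CPM in the sgZbtb1 libraries. All 3 sgZbtb1 libraries lay below every other library of the series. *Runx1* fell by 0.83 on the log2(CPM + 1) scale (SE 0.10; 95% confidence interval -1.02 to -0.63), a fold of 0.564 (limma moderated test, Benjamini-Hochberg adjusted p = 3.28e-09 over all 11554 genes). In that comparison 4.79% of the genes tested passed an adjusted p of 0.05, *Runx1* was 21st by p, and 2 of the 4 members, *Runx1* and *Runx2*, passed.

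*Runx2* was lower in the same libraries, from a far lower level than *Runx1*. It was at 28.5, 37.6 and 55.1 CPM in sgControl and at 20.1, 24.4 and 24.1 CPM in sgZbtb1. The groups did not overlap, but the control libraries spread widely, from 49 to 94 reads. *Runx2* fell by 0.75 (SE 0.22; interval -1.19 to -0.31; limma adjusted p = 0.0283). The call did not survive leaving out any 1 of 5 of the 6 libraries (sgControl replicate 2 or 3, or sgZbtb1 replicate 1, 2 or 3), with an adjusted p of up to 0.281 without sgControl replicate 3 and of 0.00730 without sgControl replicate 1. *Runx2* overlaps the genes Supt3 and Runx2os1 on the opposite strand, and the sources used here do not say whether reads were counted by strand. The exon of Supt3 nearest to the 3′ end of *Runx2* is 281 kb away, and Supt3 and *Runx2* share 0 exon bases. Runx2os1, an antisense gene, had a mean of 3.45 CPM over all libraries and a highest value of 6.45 CPM. Its part in the *Runx2* reads was not tested.

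*Runx3*, at a level like that of *Runx1* in control cells, gave no such difference. Its values were 228, 324 and 318 CPM in sgControl and 269, 296 and 282 CPM in sgZbtb1, and the sgZbtb1 libraries lay inside the control range. The difference was -0.02 (SE 0.11; interval -0.24 to 0.19; limma adjusted p = 0.95), so the interval leaves out a loss of the size seen for *Runx1*. *Cbfb* was at 142, 141 and 129 CPM in sgControl and at 145, 127 and 106 CPM in sgZbtb1, which overlapped, with a difference of -0.14 (SE 0.12; interval -0.38 to 0.11; limma adjusted p = 0.618). Without 1 library the *Cbfb* difference was -0.24 to -0.016.

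**Figure D1:**
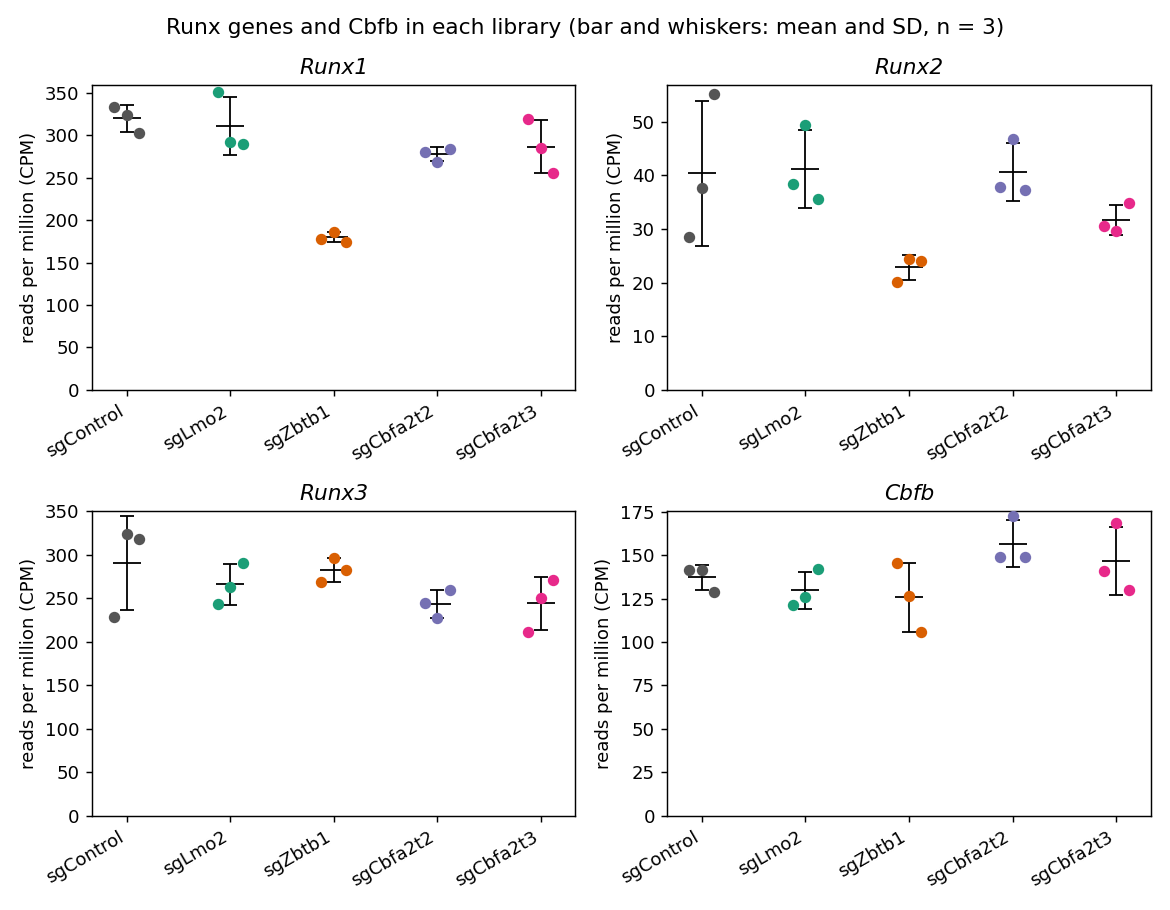
Scaled reads (CPM, axis from 0) of Runx1, Runx2, Runx3 and Cbfb in each of the 15 libraries, by sgRNA pool, as points, with a horizontal bar for the mean and whiskers for the SD of the 3 libraries. Runx1 is at 175 to 186 CPM under sgZbtb1 and at 256 to 351 CPM under the 4 other pools.

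The other 3 sgRNA pools gave no call for any member. In sgLmo2, *Runx1* was at 351, 292 and 290 CPM, around the control values, with a difference of -0.05 (interval -0.24 to 0.15). In sgCbfa2t2 it was at 280, 268 and 284 CPM, below every control library, with a difference of -0.20 (interval -0.40 to -0.01; limma adjusted p = 0.502). In sgCbfa2t3 it was at 319, 285 and 256 CPM, overlapping the controls, with a difference of -0.16 (interval -0.36 to 0.03; adjusted p = 0.588 in limma). Without 1 library that difference was -0.24 to -0.085. The share of all genes called was 0.0173% in sgLmo2, 0.147% in sgCbfa2t2 and 0.537% in sgCbfa2t3, so 0 of 4 members is near what these comparisons gave in all. At an unadjusted p under 0.05 in limma were *Runx1* and *Runx3* in sgCbfa2t2, beside 9.56% of all genes, and *Runx3* in sgCbfa2t3, beside 10.6%.

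*Runx3* had its lowest means in the libraries labelled sgCbfa2t2 and sgCbfa2t3. It was at 244, 227 and 259 CPM in sgCbfa2t2 and at 211, 250 and 271 CPM in sgCbfa2t3, against 228 to 324 CPM in sgControl. Both groups overlapped the controls through sgControl replicate 1, whose *Runx3* value was well below that of the other controls. The differences were -0.24 (interval -0.45 to -0.02; limma adjusted p = 0.473) and -0.24 (interval -0.45 to -0.02; limma adjusted p = 0.402), and -0.11 in sgLmo2 (interval -0.33 to 0.10). Without 1 library the difference in sgLmo2 was -0.28 to -0.024. The size of the differences in sgCbfa2t2 and sgCbfa2t3 rests on single libraries. Without sgControl replicate 1 they were -0.40 in both (limma adjusted p = 0.148 and 0.0858), without sgControl replicate 2 they were -0.15 in both (limma adjusted p = 0.794 and 0.758), and without sgCbfa2t3 replicate 1 the difference in sgCbfa2t3 was -0.14 (limma adjusted p = 0.781).

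*Cbfb* had its highest mean in the libraries labelled sgCbfa2t2, which were at 149, 172 and 149 CPM, all above the controls. The difference was 0.19 (interval -0.06 to 0.43; limma adjusted p = 0.684). In sgCbfa2t3 it was at 141, 168 and 130 CPM and in sgLmo2 at 122, 126 and 142 CPM, both overlapping the controls. For *Runx2* the values were 38.4, 49.4 and 35.6 CPM in sgLmo2, 37.8, 46.8 and 37.2 CPM in sgCbfa2t2 and 30.6, 29.7 and 34.9 CPM in sgCbfa2t3, each overlapping the controls.

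Overlap of the libraries was counted as well. In sgZbtb1, *Runx1* and *Runx2* did not overlap with sgControl, as 22.9% of all genes did not. In sgCbfa2t2, *Runx1* (lower) and *Cbfb* (higher) did not, beside 13.7% of all genes. No member was free of overlap in sgLmo2 (10.6% of all genes) or in sgCbfa2t3 (15.8%). An exact permutation test of 3 libraries against 3 cannot give a two-sided p below 0.1, which is what it gave in each of these 4 cases.

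**Figure D2:**
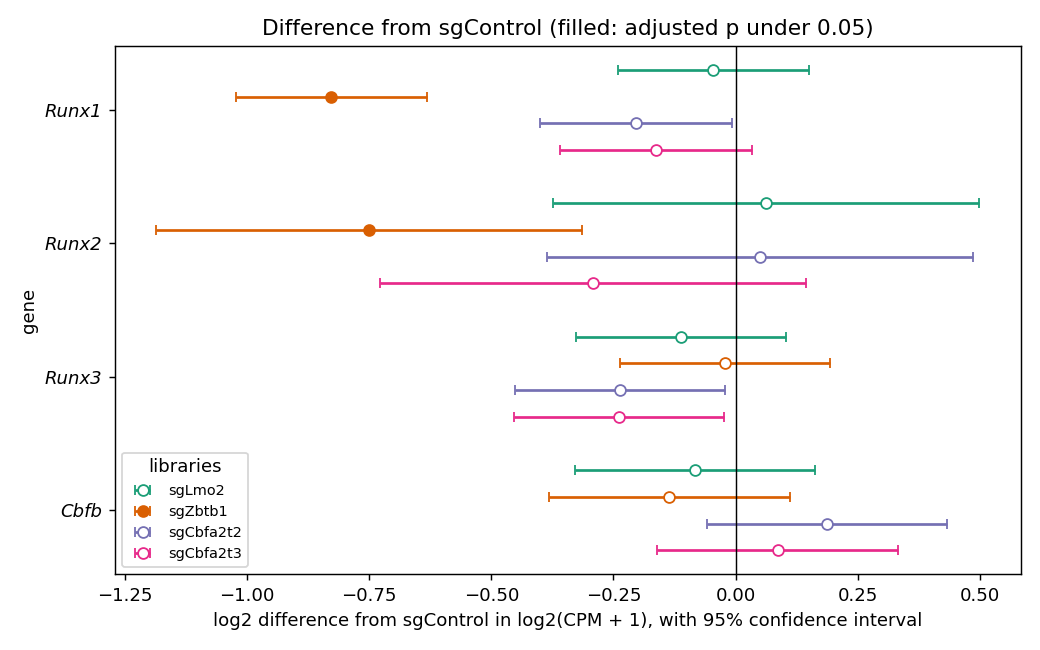
Difference from sgControl in log2(CPM + 1) for each gene and sgRNA pool, as points with 95% confidence intervals from the limma fit; filled points passed an adjusted p of 0.05. Only Runx1 (-0.83) and Runx2 (-0.75) in the libraries labelled sgZbtb1 are filled.

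The 4 comparisons share the sgControl libraries, so the members were also compared between the sgRNA pools directly. *Runx1* was lower in sgZbtb1 than in sgLmo2 by 0.78 on the log2 scale (a difference of -0.78, SE 0.10; limma adjusted p = 1.37e-08), than in sgCbfa2t2 (-0.62; adjusted p = 1.03e-05) and than in sgCbfa2t3 (-0.66; adjusted p = 3.29e-06). These comparisons called 5.06%, 2.27% and 1.13% of all genes. Leaving out any 1 library kept all 3 *Runx1* calls, with differences between -0.83 and -0.58. *Runx2* was lower in sgZbtb1 than in sgLmo2 (-0.81; limma adjusted p = 0.0140) and sgCbfa2t2 (-0.80; limma adjusted p = 0.0294), while against sgCbfa2t3 the difference was -0.46 (limma adjusted p = 0.46); the first 2 calls were lost on leaving out 1 library, with an adjusted p of up to 0.128 and 0.211. *Runx3* and *Cbfb* passed in none of the 3. No member passed between sgCbfa2t3 and sgLmo2, sgCbfa2t3 and sgCbfa2t2, or sgCbfa2t2 and sgLmo2, where 0.736%, 0.0779% and 0.234% of all genes did.

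A moderated F test over the 5 conditions, which called 4.54% of all genes, passed for *Runx1* (36th by p; limma adjusted p = 2.41e-09) and *Runx2* (adjusted p = 0.0353). It gave an adjusted p of 0.360 for *Runx3* and 0.367 for *Cbfb*. The *Runx2* result was lost without 1 of 6 of the 15 libraries (sgControl replicate 3, sgLmo2 replicate 2, sgZbtb1 replicate 1, 2 or 3, or sgCbfa2t2 replicate 2), with an adjusted p of up to 0.200.

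The share of *Runx1* in the summed Runx reads separated the sgZbtb1 libraries from the others. Of the summed 3′ reads of the 3 Runx genes, *Runx1* gave 56.5%, 47.2% and 44.8% in the sgControl libraries and 38.2%, 36.8% and 36.3% in the libraries labelled sgZbtb1. The 4 other conditions had means of 49.4% to 51.0%, and no library of theirs was below 44.8%. *Runx3* gave 44.3 ± 4.94% in sgControl and 58.2 ± 0.600% in sgZbtb1 (SD, n = 3). The ratio of *Runx1* to *Runx3* reads within a library was 1.14 ± 0.283 in sgControl and 0.637 ± 0.0231 in sgZbtb1, without overlap (exact permutation test, two-sided p = 0.1, the smallest that 3 against 3 allows).

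The sum of the 3 Runx genes was 651 ± 52.2 CPM in sgControl and 485 ± 20.4 CPM in sgZbtb1 (SD, n = 3). It was 562 ± 19.0 CPM in sgCbfa2t2 and 562 ± 2.03 CPM in sgCbfa2t3, also below every control library, and 618 ± 14.3 CPM in sgLmo2, which overlapped. Per read of *Cbfb* there were 4.75 ± 0.543 Runx reads in sgControl, 3.93 ± 0.675 in sgZbtb1, 3.61 ± 0.403 in sgCbfa2t2 and 3.88 ± 0.488 in sgCbfa2t3. Of these ratios, the one in sgCbfa2t2 did not overlap with sgControl.

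**Figure D3:**
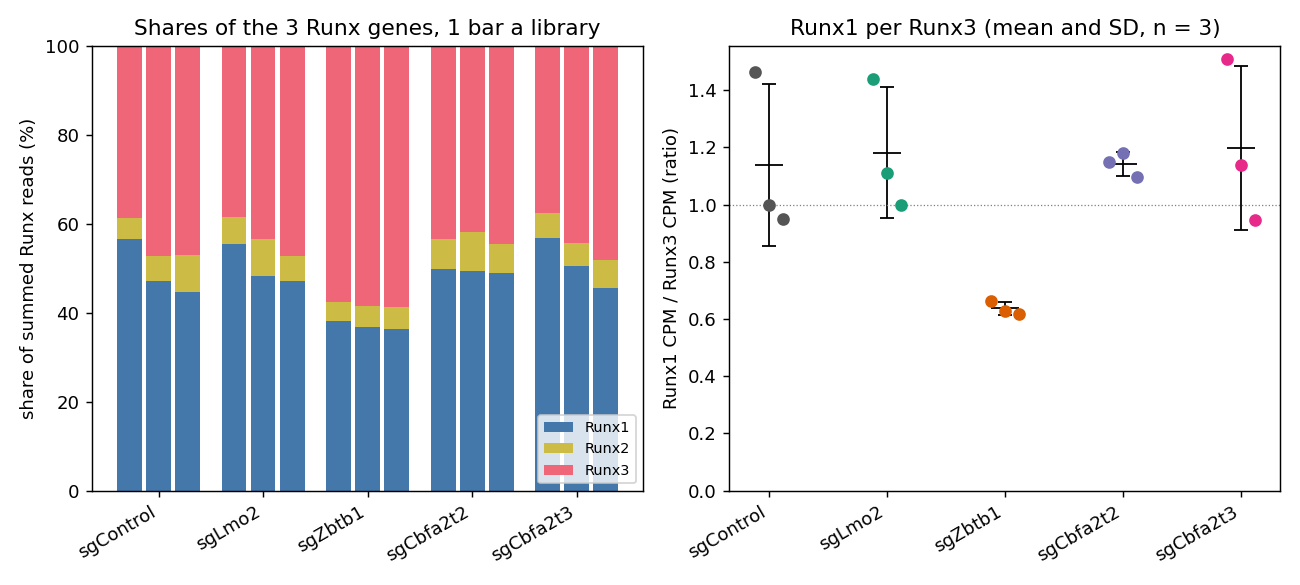
Left, share (%) of the summed reads of Runx1, Runx2 and Runx3 that each gene gave, 1 bar per library; right, the ratio of Runx1 to Runx3 CPM in each library as points, with the mean and SD of 3 libraries. The ratio is 0.619 to 0.663 in the libraries labelled sgZbtb1 and 0.945 to 1.51 in the others.

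The genes with expression most like each member were found by Pearson's r over the 15 libraries among 7938 named genes with a mean above 10 CPM, as a description; the libraries share their depth range and their conditions. *Runx1* was most like Acsl3, an enzyme that activates long-chain fatty acids (r = 0.956), Tcrg-C4, a T-cell receptor gamma constant segment (r = 0.936), and Cd24a, a surface antigen of early B and T cells (r = 0.927). The mean of Cd24a was 116 CPM in sgControl and 42.9 CPM in sgZbtb1, which is given as a description, since the gene was chosen for its likeness to *Runx1* over these libraries. The likest genes of *Runx2* were Npc2, Ahcyl2 and Smim14 (r = 0.864 to 0.893), those of *Runx3* Ppp2r2a, Kif20b and Uxs1 (0.857 to 0.862) and those of *Cbfb* Akirin2, Prr14l and Wtap (0.795 to 0.811). Among the members themselves r was highest for *Runx1* with *Runx2* (0.649) and lowest for *Runx3* with *Cbfb* (-0.386).

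Of the known Runx cofactors, Prmt1 was higher and Tle1 lower in sgZbtb1. Of 21 genes on that list, which holds corepressors, acetyltransferases and other partners, 20 were tested and 1 was higher and 1 lower in sgZbtb1, beside 4.79% of all genes called, with a median difference of -0.11 beside -0.03 for all genes. At an unadjusted p under 0.05 were 7 of the 20 in limma, beside 17.6% of all genes. Another cofactor was called, lower, with a pseudocount of 0.1 (Tle2, at means of 0.345 CPM in sgZbtb1 and 2.71 CPM in sgControl; log2 difference -2.91, limma adjusted p = 0.0288, beside -1.40 and 0.111 with a pseudocount of 1) and with the replicate block (Kmt2a, a histone methyltransferase; -0.38; limma adjusted p = 0.0406), and edgeR called Prmt1 and Tle1 alone. Prmt1, an arginine methyltransferase that modifies Runx1, rose from 505, 539 and 489 CPM in sgControl to 608, 798 and 812 CPM in sgZbtb1, without overlap (log2 difference 0.52; limma adjusted p = 6.30e-05). Tle1, a Groucho-type corepressor, fell from 8, 6 and 10 reads to 0, 1 and 0 reads (limma adjusted p = 0.0101), which is at the level of the 3 reads that a count of 0 allows. Without a call, Tle1 was also lower in sgCbfa2t3, at 0, 1 and 4 reads (-1.70, limma adjusted p = 0.226). Likewise, Prmt1 was higher in sgCbfa2t2, at 637, 576 and 704 CPM (0.32, limma adjusted p = 0.170). In sgCbfa2t3 limma called 1 cofactor, Cbfa2t3 itself, higher under its own sgRNA. With that gene included, 5 of the 20 were at an unadjusted p under 0.05, beside 10.6% of all genes. edgeR and the fit with the replicate block called Tle2, another Groucho-type corepressor, as well, at means of 13.7 CPM in sgCbfa2t3 and 2.71 CPM in sgControl (log2 difference 1.95; adjusted p = 0.0678 in limma, 0.0435 in edgeR and 0.0469 in limma with the block). In sgLmo2 and sgCbfa2t2, 0 cofactors were called by limma or by edgeR, and 1 and 6 were at an unadjusted p under 0.05 in limma, beside 5.65% and 9.56% of all genes. The 6 in sgCbfa2t2 include Cbfa2t2, the target of that sgRNA, and Cbfa2t3.

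Genes that Runx factors are known to regulate in blood cells gave 1 higher and 3 lower of the 17 tested (of 31 listed) in sgZbtb1, with a median difference of -0.05 beside -0.03 for all genes. The share of all genes called there was 4.79%, and 6 of the 17 were at an unadjusted p under 0.05 in limma, beside 17.6% of all genes. Bcl11b, a factor of T-lineage commitment, fell from 24.4, 20.3 and 18.8 CPM in sgControl to 5.59, 4.30 and 5.89 CPM (log2 difference -1.82; limma adjusted p = 0.000453). Lck, the kinase that starts T-cell receptor signaling, fell from 73.2, 83.9 and 92.1 CPM to 56.4, 40.2 and 39.8 CPM (-0.87; limma adjusted p = 0.000116). Neither gene's groups overlapped.

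Pax5, a B-lineage factor, was at 12, 9 and 14 reads in sgControl and at 0, 2 and 3 reads in sgZbtb1 (limma adjusted p = 0.00420), so that it too was near the detection limit. Cdkn1a, the cell-cycle inhibitor p21, rose from 508, 486 and 478 CPM to 697, 715 and 623 CPM (log2 difference 0.46; limma adjusted p = 0.000496). In each of the other 3 comparisons 0 genes of the list were called by limma or by edgeR, and 2 (sgLmo2), 1 (sgCbfa2t2) and 2 (sgCbfa2t3) were at an unadjusted p under 0.05 in limma, with the shares of all genes as given for the cofactors. The 2 in sgCbfa2t3 were Bcl11b and Pax5, both below every control library. Bcl11b was at 15.5, 5.71 and 13.3 CPM there (-0.92, limma adjusted p = 0.334). Pax5 was at 2, 5 and 4 reads (-1.38, limma adjusted p = 0.285). For Bcl11b and Pax5 the differences were -0.72 and -0.77 in sgCbfa2t2, with overlap, and 0.23 and 0.56 in sgLmo2.

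The mRNA of the targeted genes was not called lower under any of their own sgRNAs. Zbtb1 mRNA was higher under its own sgRNA (106 ± 9.91 CPM against 61.7 ± 5.51 CPM in sgControl; SD, n = 3; limma adjusted p = 0.00102), as was Cbfa2t3 (350 ± 12.9 against 190 ± 18.7 CPM; limma adjusted p = 1.67e-07), while Lmo2 (-0.26) and Cbfa2t2 (0.82) were not called. Reads from the 3′ end do not read a small edit in the coding sequence and so do not check the disruption, which the study examined for Lmo2, Zbtb1 and Cbfa2t3 by immunoblotting of the proteins, not analysed here. Every direction above is that of the libraries as labelled. The summed level of 8 lymphoid progenitor markers was 1374 to 1681 CPM over all libraries, 1504 to 1585 CPM in sgControl and 1374 to 1435 CPM in sgZbtb1, below every control library. Rag1, 1 of the 8, had a mean of 1.20 CPM in sgZbtb1 and of 1.55 CPM in sgControl, both under the limit of 3 reads. The 14 markers of OP9 stroma summed to 4.30 to 6.15 CPM in sgZbtb1 and to 4.63 to 12.3 CPM in sgControl, with 7 to 9 of the 14 at 0 in all 3 libraries of a group. The summed markers were 5.89 to 12.3 CPM in sgZbtb1 against 13.4 to 18.8 CPM in sgControl for committed T cells (6 genes) and 8.61 to 22.9 against 15 to 17.0 CPM for myeloid cells (6 genes). The T-cell sum was mostly Lat (mean over 15 libraries 14.0 CPM), with Cd3e, Cd3d, Cd3g, Cd4 and Cd8a at means of 0 to 0.309 CPM. Pax5, a marker of committed B cells, was also lower in sgZbtb1, at the reads given above, while Cd79a and Ms4a1 were at 0 in all 15 libraries and Cd79b had a mean of 0.452 CPM. The part of these markers in the *Runx1* result was not tested.

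The ChIP-seq lists placed both factors at the *Runx1* and *Runx3* loci. The score is the normalized peak score that HOMER gives a peak, and each list holds peaks that were reproducible in the replicates, so a single score stands for both. *Runx1* (chr16:92601466-92826149, mm10, minus strand) was the nearest gene of 8 Zbtb1 peaks and 9 Cbfa2t3 peaks. *Runx3* (chr4:135120652-135177990, plus strand) was that of 8 Zbtb1 and 11 Cbfa2t3 peaks. Among the 4270 genes with a Zbtb1 peak 4 had 8 or more, and among the 3593 genes with a Cbfa2t3 peak 4 had 11 or more and 12 had 9 or more. These counts were not adjusted for the length of a gene or the space around it.

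*Runx2* (chr17:44495987-44814797, minus strand) had 2 peaks in each list and *Cbfb* (chr8:105170674-105217989, plus strand) had 1 Zbtb1 peak and 0 Cbfa2t3 peaks. The median score was 50.8 for the members' Zbtb1 peaks beside 28 in the whole list, and 41.2 for their Cbfa2t3 peaks beside 33.2. A peak on or near a gene is an assignment by position and does not show that the factor acts on that gene.

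The highest Zbtb1 scores of the 4 genes were at the starts of *Runx1*. A Zbtb1 peak with a score of 220 (136th of 5898) lay at the distal start (chr16:92825853-92826223), and its centre window held 3 Runx cores. Another, with a score of 206 (155th), lay in the annotated 5′ UTR 0.653 kb past the proximal start (chr16:92696491-92696861), and one with a score of 81.8 lay at -0.795 kb from that start (chr16:92697939-92698309). The other 5 lay in introns with scores of 16.3 to 74.1. The centres of all 8 were within the gene.

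The Cbfa2t3 peaks of *Runx1* were weaker and more distant. The highest, with a score of 74.2, lay at -203 kb (chr16:93028649-93029027), the second, with 48.1, at the distal start (chr16:92825859-92826237), and 4 of the 9 lay upstream of the gene. *Runx1* peaks overlapped between the lists at the distal start, where the centres were 10 bases apart, and in an intron at 39.1 kb (chr16:92786768-92787138 for Zbtb1, score 16.3; chr16:92786836-92787214 for Cbfa2t3, score 27.5). At about 25 kb the lists had separate peaks that did not overlap, Zbtb1 at 25.1 kb (score 74.1) and Cbfa2t3 at 24.4 kb (score 29.1).

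At *Runx3* the lists met more often. Of the Zbtb1 peaks 6 of 8 overlapped a Cbfa2t3 peak, which is 6 of 11 of the Cbfa2t3 peaks. The overlapping pairs had scores of 86.2 (Zbtb1) and 82.7 (Cbfa2t3) at -50.6 kb (chr4:135069824-135070194 and chr4:135069864-135070242), and of 77.9 and 92.5 at 10.7 kb in an intron (chr4:135131137-135131507 and chr4:135131106-135131484). At -40.5 kb a Zbtb1 score of 27.5 stood beside a Cbfa2t3 score of 151, the highest of any member peak in that list (227th of 6077; chr4:135079994-135080364 and chr4:135080110-135080488).

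The remaining pairs were at -21.9 kb (37.5 and 53.2; chr4:135098564-135098934 and chr4:135098512-135098890), at the distal promoter (50.8 and 52.8; chr4:135120094-135120464 and chr4:135120318-135120696) and at 16.2 kb (26.5 and 51.6; chr4:135136630-135137000 and chr4:135136631-135137009). At the distal promoter the centres were 228 bases apart. Over the 4 genes 8 of 19 Zbtb1 peaks (42.1%) overlapped a Cbfa2t3 peak, beside 25.2% of all Zbtb1 peaks, and 8 of 22 Cbfa2t3 peaks (36.4%) overlapped a Zbtb1 peak, beside 24.4% of all. Peaks of 1 gene are not independent, so this is given without a test.

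**Figure D4:**
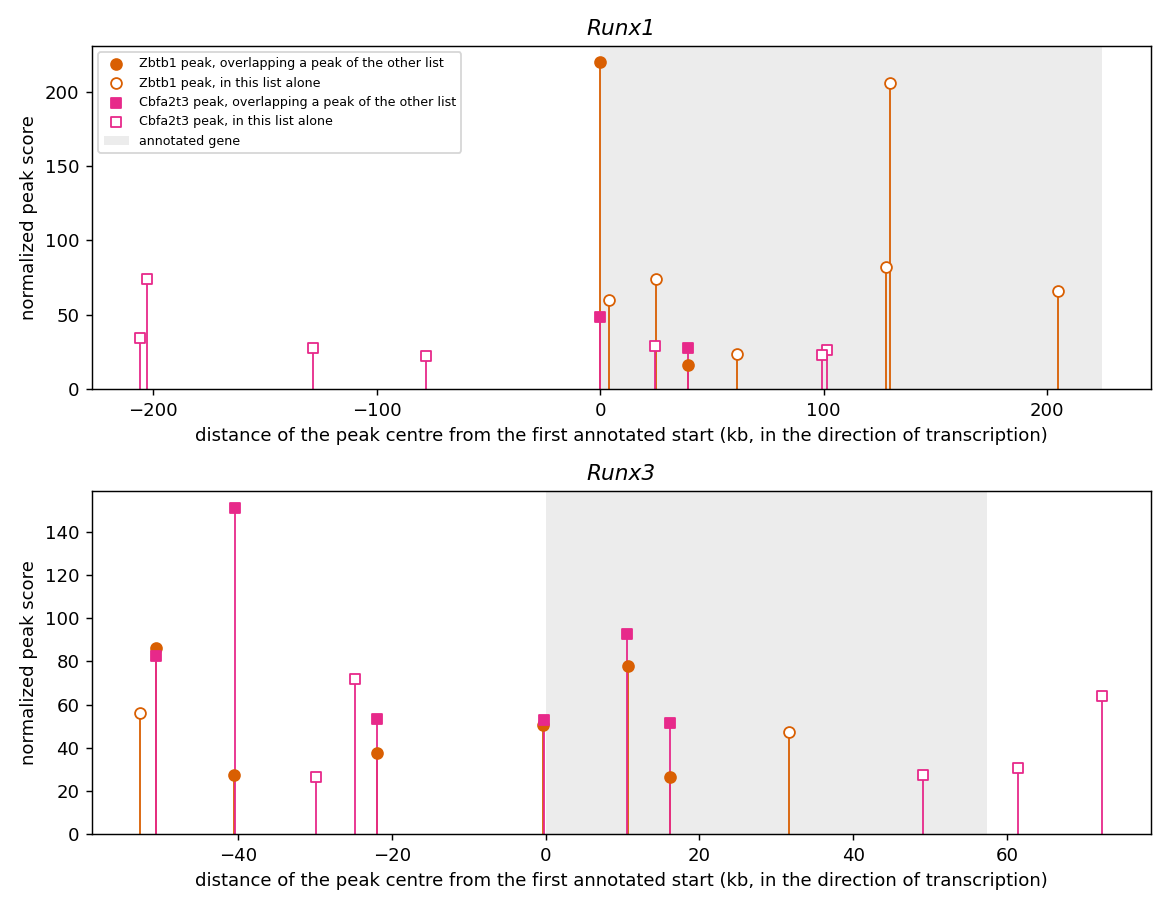
Normalized score of each Zbtb1 and Cbfa2t3 peak assigned to Runx1 (top) and Runx3 (bottom) against the distance (kb) of its centre from the first annotated start; filled symbols overlap a peak of the other list and grey marks the gene. Runx1 has Zbtb1 scores of 220 and 206 at its starts, and 6 Runx3 positions carry peaks of both lists.

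*Runx2* and *Cbfb* had fewer peaks. The Zbtb1 peaks of *Runx2* lay on an exon 0.781 kb past the nearest annotated start (score 33.1; chr17:44735210-44735580) and at the distal start, over the double site shown above (score 15.5, close to the lowest score kept; chr17:44814381-44814751). Its Cbfa2t3 peaks lay in introns (scores 53.3 and 34.0; chr17:44702014-44702392 and chr17:44654548-44654926), and no *Runx2* peak was in both lists. The *Cbfb* peak lay 0.120 kb past its start (score 50.3; chr8:105170609-105170979). The 6 RefSeq promoter windows used are the distal and proximal ones of *Runx1* and *Runx3*, the distal one of *Runx2* and that of *Cbfb*; a proximal *Runx2* window was not analysed here. Of these 6 windows, 5 overlapped a Zbtb1 peak, beside 6.70% of all 32851 windows, and 2, the distal windows of *Runx1* and *Runx3*, overlapped a Cbfa2t3 peak, beside 2.59%. The 32851 windows were not limited to genes with reads in these cells, and the share among such genes was not counted.

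Runx cores were counted in the 200 bp at each peak centre. The core TGTGGT (either strand) was in 11 of 19 member peaks of Zbtb1 (57.9%), beside 41.3% of all Zbtb1 peaks, and in 9 of 22 of Cbfa2t3 (40.9%), beside 43.7%. By gene it was in 6 of 8 *Runx1*, 4 of 8 *Runx3*, 1 of 2 *Runx2* and 0 of 1 *Cbfb* peaks of Zbtb1, and in 4 of 9 *Runx1*, 5 of 11 *Runx3* and 0 of 2 *Runx2* peaks of Cbfa2t3.

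Other short motifs were near their share in the lists. GATA (either strand) was in 31.6% of member peaks of Zbtb1 (all 27.2%) and 40.9% of those of Cbfa2t3 (all 37.0%), GGAA (either strand), the Ets core, in 84.2% (81.1%) and 90.9% (92.4%), and CANNTG, the E-box, which reads the same on both strands, in 57.9% (53.6%) and 90.9% (89.3%). None of these motifs contains another, although neighboring matches may overlap. A match describes the letters and is no evidence of binding by a given factor.

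Centre windows (200 bp, plus strand of mm10, each free of annotated exons) of 5 peaks show the range, with Runx cores in capitals on either strand (TGTGGT, or ACCACA where the core is on the other strand). They are the intron peak of both lists at *Runx3* and its strongest Cbfa2t3 peak, an intron peak of Zbtb1 at *Runx1* with 3 cores, the stronger Zbtb1 intron peak at 25.1 kb and the strongest Cbfa2t3 peak of *Runx1*.
Runx3, 10.7 kb, Zbtb1 peak that overlaps a Cbfa2t3 peak, chr4:135131223-135131422: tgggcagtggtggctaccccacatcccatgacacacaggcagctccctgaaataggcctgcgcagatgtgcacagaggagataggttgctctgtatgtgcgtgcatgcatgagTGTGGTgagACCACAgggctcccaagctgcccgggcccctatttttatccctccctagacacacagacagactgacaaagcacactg
Runx3, -40.4 kb, Cbfa2t3 peak that overlaps a Zbtb1 peak, chr4:135080200-135080399: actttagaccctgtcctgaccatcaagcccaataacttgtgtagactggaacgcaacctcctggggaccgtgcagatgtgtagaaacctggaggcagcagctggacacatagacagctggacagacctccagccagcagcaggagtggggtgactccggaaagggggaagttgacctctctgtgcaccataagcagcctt
Runx1, 3.92 kb, Zbtb1 peak, chr16:92822129-92822328: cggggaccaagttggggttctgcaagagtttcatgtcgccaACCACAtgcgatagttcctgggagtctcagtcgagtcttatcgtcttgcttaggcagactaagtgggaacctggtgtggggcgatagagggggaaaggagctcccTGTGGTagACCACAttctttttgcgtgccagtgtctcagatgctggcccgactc
Runx1, 25.1 kb, Zbtb1 peak, chr16:92800915-92801114: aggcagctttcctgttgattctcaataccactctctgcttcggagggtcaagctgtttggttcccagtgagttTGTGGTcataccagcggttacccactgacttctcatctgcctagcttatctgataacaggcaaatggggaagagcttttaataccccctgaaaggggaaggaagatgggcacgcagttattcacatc
Runx1, -203 kb, Cbfa2t3 peak, chr16:93028739-93028938: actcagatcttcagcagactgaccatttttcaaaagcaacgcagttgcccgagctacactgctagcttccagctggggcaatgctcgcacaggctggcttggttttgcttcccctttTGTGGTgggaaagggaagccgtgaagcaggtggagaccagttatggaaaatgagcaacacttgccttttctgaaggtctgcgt
The *Runx3* window at 10.7 kb held 2 cores, in opposite directions, and no GGAA. The window at -40.4 kb, with the highest Cbfa2t3 score of the members' peaks, held none, and had 3 GGAA and 3 CANNTG matches. The *Runx1* window at 3.92 kb held 3 cores, 3 GATA and 3 GGAA matches, the one at 25.1 kb 1 core, 2 GATA and 5 GGAA matches, and the one at -203 kb 1 core, 5 GGAA and 4 CANNTG matches.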

How the data were processed

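QuantSeq 3′ mRNA libraries (15; 3 for each of 5 sgRNA pools) and ChIP-seq peak lists (Zbtb1 and Cbfa2t3, each from 2 replicates with matched input) were used as deposited. Expression values were deposited by the authors as TPM, but they are CPM, not divided by gene length: reads were trimmed with fastp, mapped to mm10 with STAR and scaled per library, and 100% of the values are whole reads within 0.1 read. Depth was 1705416 to 2095447 reads, so 3 reads, the limit that a count of 0 allows, correspond to 1.43 to 1.76 CPM. Peak scores, positions and nearest genes are as the authors deposited them, from Bowtie 1.1.1 and HOMER, kept at a normalized score of at least 15 in the deposited lists where reproducible between replicates. Columns of the authors' own means, SDs, t-tests and fold changes were not used, nor was 1 line without a gene identifier.

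limma 3.58.1 (R 4.3.3) was fitted to log2(CPM + 1), trend and all 15 libraries together, for 11554 genes with a mean above 1 CPM, with Benjamini-Hochberg adjustment over all of them. The fit was also run on simulated counts, with the outcome not reported here. Fold changes on this scale are understated for low genes. edgeR 4.0.16 and DESeq2 1.42.0 on the recovered reads were alternatives. Coordinates are mm10, and sequences come from GRCm38.p6, the same assembly. Peaks were called shared at 1 bp of overlap. Exact permutation tests were two-sided. The study's methods call the 3 replicates of a group biologically independent, without saying what was separate, and the p-values measure the spread between these samples. Replicate numbers were not taken as pairs. Named genes were the 4 members, the 3 genes most like each, list genes with an adjusted p under 0.05 in any of the fits and the targeted genes. Ebf1, some cell type markers and genes that overlap a member or its promoter window are named as well. Positions are given for the 2 peaks with the highest score per gene and list, for shared peaks and for some others. The summed level of the committed B-cell markers is not reported here. The members and lists were chosen with earlier results of these data known.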

Additional observations from a re-analysis of the deposited data

How the results depend on the processing

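*Runx1* in the libraries labelled sgZbtb1 kept its direction and its call under all 9 other settings (log2 difference -0.83 to -0.69) and on leaving out each of 6 libraries (-0.87 to -0.80). *Runx2* kept its direction in all of them (-0.97 to -0.50 without 1 library) and lost its call in 5 of 6 leave-outs, and also when all genes above 0 were tested (-0.75, adjusted p = 0.0694). Its F test gave an adjusted p of 0.0106 to 0.200 without 1 of 15 libraries.

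Several differences that were not called against sgControl changed sign. Against the 9 libraries of the other gene-targeting pools in place of sgControl, sgLmo2 gave 0.35 for *Runx1*, which passed the threshold there (limma adjusted p = 0.00589), and 0.054 for *Runx3*, sgZbtb1 gave 0.17 for *Runx3*, and sgCbfa2t2 and sgCbfa2t3 gave 0.14 and 0.20 for *Runx1*; the comparison group then holds the sgZbtb1 libraries. DESeq2 gave -0.0021 for *Runx2* in sgCbfa2t2. Without 1 library the ranges were -0.13 to 0.00060 (*Runx1*, sgLmo2), -0.16 to 0.31 (*Runx2*, sgLmo2), -0.19 to 0.066 (*Runx3*, sgZbtb1), -0.17 to 0.29 (*Runx2*, sgCbfa2t2) and -0.018 to 0.17 (*Cbfb*, sgCbfa2t3).

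The count of all genes called moved more. It was 330, 0 and 24 in sgZbtb1, sgCbfa2t2 and sgCbfa2t3 with all genes above 0 tested, 1 in sgLmo2 from its 6 libraries alone, and 201, 9 and 31 in sgLmo2, sgCbfa2t2 and sgCbfa2t3 against the 9 other libraries. Without 1 library it was 306 to 459 (sgZbtb1), 1 to 4 (sgLmo2), 2 to 26 (sgCbfa2t2) and 26 to 59 (sgCbfa2t3). With the replicate block it was 14 in sgLmo2 and 36 in sgCbfa2t2, and 2 Runx cofactors passed in sgCbfa2t3, as in edgeR (2); the block changed no call of a member. The numbers share no stated batch. The deviations of same-numbered libraries from their group means correlated at a mean r of 0.0279 (-0.0072 to 0.0656), beside -0.0139 for different numbers. Of 15 libraries, 14 correlated best with one of their own number. The share of *Runx1* in the Runx reads was highest in replicate 1 and lowest in replicate 3 in 5 of 5 groups, and lowest in sgZbtb1 at 3 of 3 numbers.

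Of the peak counts, *Runx1* went from 8 to 5 (Zbtb1) and from 9 to 5 (Cbfa2t3), *Runx2* from 2 to 0 (Cbfa2t3) and *Cbfb* from 1 to 4 (Zbtb1) and from 0 to 2 (Cbfa2t3) with centres within 100 kb of the gene start, which also takes peaks nearer to other genes. At a score of at least 30, *Runx1* went to 3 (Cbfa2t3), *Runx2* to 1 (Zbtb1) and shared member peaks from 8 to 5. With TGTGGTT in place of TGTGGT the share of member peaks was 31.6% (Zbtb1) and 13.6% (Cbfa2t3), beside 21.4% and 21.7% of all peaks. Where no cause is named it was not tested. Depth limits Tle1 and Pax5, at 0 to 14 reads in the groups compared, and Tle2, at a mean of 0.345 CPM in sgZbtb1. *Runx2* had 36 to 101 reads, and its CV in sgControl was 33.5%, beside 12.3% from counting alone.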
